A study of Mus musculus with 474 samples.

Results

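Esr1, Nr3c1, Greb1 and Stc2 are a pair of steroid hormone receptors and a pair of genes known to respond to hormones. They were followed through skeletal muscle of Diversity Outbred (DO) mice, a stock bred from 8 inbred founder strains and kept outbred, so that no animal has the genome of another. The 4 genes were picked by name from the 20612 genes in the deposited tables, with results of the same libraries in view: Greb1 and Stc2 were already known to be among the genes that lay lowest in males. Their difference between the sexes is therefore given as a description, with no test. What the choice did not use, namely the differences between generations, between library blocks and the correlations among animals of the same sex and generation, was tested.

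Each animal gave 1 library, measured by RNA-seq. All animals, female and male, were sensitised on a high-fat, high-sugar diet (45% fat per the labels) from 4 weeks of age and were harvested at 22 weeks per the methods, so there was no group on another diet. The labels give the sex and a number that is read here as the outbred generation, which is an assumption, because the methods name 18, 19 and 21 only. There were 48 female and 46 male libraries in generation 17, 45 and 48 in generation 18, 49 and 50 in generation 19, 46 and 47 in generation 21, and 47 and 48 in generation 23. The total count per library ranged from 35902446 to 165723762 with a median of 79308916. Levels are given in CPM, that is, counts scaled to the TMM-adjusted total of the library. All 4 genes passed the filter on low counts, which kept 18823 genes.

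Steroid hormones cross the cell membrane and bind receptors that act as transcription factors. Estrogen receptor alpha, the product of Esr1, is the main receptor for estradiol, and the glucocorticoid receptor, the product of Nr3c1, binds corticosterone in mice. Before they bind hormone, such receptors are held by chaperones of the HSP90 system, and on DNA they recruit coactivators and corepressors. Greb1 is an early estrogen-induced gene of breast cancer cells whose product is a cofactor of the estrogen receptor. Stc2 encodes stanniocalcin 2, a secreted glycoprotein that inhibits the protease PAPP-A and so slows the release of insulin-like growth factors from their binding proteins. In skeletal muscle, glucocorticoids are known for raising genes of protein breakdown and lowering glucose uptake, and muscle fibres express Esr1 in both sexes.

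Sex-linked RNA went with the labels in all but 5 libraries. Xist, transcribed from the inactive X of females, was at 0.329 and 0.170 CPM, with no counts of the Y-linked gene Ddx3y, in the libraries labelled female DO153 and DO347. The library labelled female DO048 had Xist at 123.2 CPM and also Ddx3y at 0.135 CPM. The library labelled male DO308 had neither RNA, and the library labelled male DO193 had Xist at 13.8 CPM beside Ddx3y at 96.7 CPM. All 5 were kept under their labels, and results without them are given beside those with them. Fast-fibre markers, which define the tissue, summed to between 108550 and 202270 CPM in females and between 117840 and 191910 CPM in males. No library was a copy of another, the chi-square per gene of the closest pair of libraries being 55.2.

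Greb1 and Stc2 are the genes on which the comparisons turn, so the promoter of each is shown as the RefSeq sequence of GRCm38.p6, from 250 bases before to 50 bases after the transcription start. Greb1 lies on the minus strand of chromosome 12 and its window is chr12:16800837-16801136. Stc2 lies on the minus strand of chromosome 11 and its window is chr11:31370012-31370311. Capitals mark an arm of the estrogen response element (AGGTCA, or TGACCT on the other strand), and no other letters are in capitals.
Greb1: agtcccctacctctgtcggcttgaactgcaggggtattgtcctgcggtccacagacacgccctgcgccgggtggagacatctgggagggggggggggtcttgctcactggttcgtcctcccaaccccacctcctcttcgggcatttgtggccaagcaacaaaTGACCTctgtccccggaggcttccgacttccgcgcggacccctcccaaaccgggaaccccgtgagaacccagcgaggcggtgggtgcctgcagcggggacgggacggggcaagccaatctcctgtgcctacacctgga
Stc2: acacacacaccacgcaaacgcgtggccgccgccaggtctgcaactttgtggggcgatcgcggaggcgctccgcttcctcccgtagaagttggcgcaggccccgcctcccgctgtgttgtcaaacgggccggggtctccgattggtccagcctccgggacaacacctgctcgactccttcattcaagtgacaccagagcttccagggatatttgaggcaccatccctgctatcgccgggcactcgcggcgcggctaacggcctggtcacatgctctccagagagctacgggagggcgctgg
The Greb1 window held 1 such arm, with 82 bases between it and the start, and the Stc2 window held none. A second annotated Greb1 start and both annotated Esr1 starts had none in their windows. Over 32851 mouse promoters of 300 bases, 16.3% held AGGTCA or TGACCT. The arm of the glucocorticoid response element (AGAACA or TGTTCT) was in none of these windows, and in 6233 of the 32851 promoters. The complete palindromes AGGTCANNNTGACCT and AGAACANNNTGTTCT were in 0.0213% and 0.00913% of promoters and in none of the windows described here. These are letter matches within 300 bases and not binding sites.

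The receptors were both expressed in every library, and Nr3c1 stood above Esr1. Per kilobase of exon, females had 20.2 ± 3.40 CPM of Nr3c1 and males 16.6 ± 2.55 (mean ± SD over the animals of a sex), against 3.78 ± 1.16 and 3.47 ± 0.956 for Esr1, 1.69 ± 1.14 and 0.309 ± 0.177 for Stc2, and 0.523 ± 0.385 and 0.119 ± 0.0478 for Greb1. The order of the 4 genes per kilobase was thus Nr3c1, Esr1, Stc2 and Greb1 in each sex, and the means of Stc2 and Greb1 in both sexes, and of Esr1 and Stc2 in females, lay closer than the sum of their SDs. Nr3c1 (ENSMUSG00000024431, chromosome 18, 39410545 to 39519421, GRCm38, minus strand) ran from 84.3 over a median of 152.7 to 219.2 CPM in females, and from 90.3 over 125.0 to 201.2 CPM in males. Esr1 (ENSMUSG00000019768, chromosome 10, 4611593 to 5005614, plus strand) ran from 24.2 over 48.8 to 169.1 CPM in females, and from 22.8 over 44.2 to 103.7 CPM in males. The sexes overlapped over nearly the whole range of both genes: 94.5% of females lay at or below the highest male for Nr3c1 and 99.1% for Esr1. The male minus female difference was -0.28 ± 0.02 on the log2 scale (SE) for Nr3c1 and -0.12 ± 0.04 for Esr1, which is 1.21 and 1.09 times higher levels in females. Among the medians of the 10 groups, Nr3c1 stood between 145.8 and 158.3 CPM in the female groups and between 124.2 and 126.3 CPM in the male groups, and Esr1 between 46.6 and 53.2 CPM and between 42.9 and 46.1 CPM. Because each library is a piece of whole muscle, fewer cells of a type and less RNA per cell cannot be told apart in these values.

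Greb1 and Stc2 were low in muscle and stood far apart between the sexes. Greb1 (ENSMUSG00000036523, chromosome 12, 16670615 to 16800886, minus strand) averaged 5.01 ± 3.69 CPM among females and 1.14 ± 0.457 CPM among males. Stc2 (ENSMUSG00000020303, chromosome 11, 31357307 to 31370074, minus strand) averaged 8.76 ± 5.87 CPM among females and 1.60 ± 0.915 CPM among males. The smallest count behind any of these values was 23 for Greb1 and 32 for Stc2, so every library had reads of both genes. Neither gene, nor either receptor, overlaps another gene of the tables, and all 4 are protein-coding.

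In females, Greb1 ran from 0.909 over a median of 4.54 to 21.4 CPM in generation 17, from 0.912 over 3.29 to 17.8 in generation 18, from 0.624 over 4.49 to 17.8 in generation 19, from 0.452 over 3.71 to 17.8 in generation 21, and from 0.662 over 3.99 to 23.7 in generation 23. In males it ran from 0.338 over 1.03 to 2.63 CPM, from 0.484 over 0.990 to 2.80, from 0.449 over 1.04 to 3.15, from 0.533 over 1.09 to 2.27, and from 0.517 over 1.04 to 3.10 in the same order of generations. Each female group thus had animals at male levels and a long reach upwards, and no male reached the female median. In single generations 19.6% to 29.8% of females lay at or below the highest male. Of the females, 82 lay at or below the highest male and 8 below the male median. The difference, male minus female, was -2.13 ± 0.08 on the log2 scale (SE), a 4.37-fold higher level in females. Within single generations it ran from -1.99 to -2.32, and within single library blocks from -1.79 to -2.34.

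In females, Stc2 ran from 1.73 over a median of 6.71 to 26.2 CPM in generation 17, from 1.32 over 8.49 to 31.7 in generation 18, from 2.40 over 6.44 to 40.8 in generation 19, from 1.69 over 6.45 to 23.05 in generation 21, and from 2.33 over 7.98 to 25.2 in generation 23. In males the corresponding values were 0.543, 1.48 and 4.36 CPM, then 0.719, 1.40 and 6.64, 0.440, 1.35 and 6.47, 0.495, 1.49 and 4.34, and 0.589, 1.28 and 5.86 CPM. Here 112 females lay at or below the highest male, but 1 female lay below the male median, and no male lay above the median of all females. The difference was -2.45 ± 0.08 on the log2 scale, a 5.47-fold higher level in females, and ran from -2.31 to -2.59 within generations and from -2.02 to -2.77 within library blocks. Without the 5 libraries against their label it was -2.44 for Stc2, -2.13 for Greb1, -0.28 for Nr3c1 and -0.12 for Esr1. On the deposited VST scale, which draws low values together, the differences were -1.59 for Stc2 and -1.15 for Greb1.

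**Figure D1:**
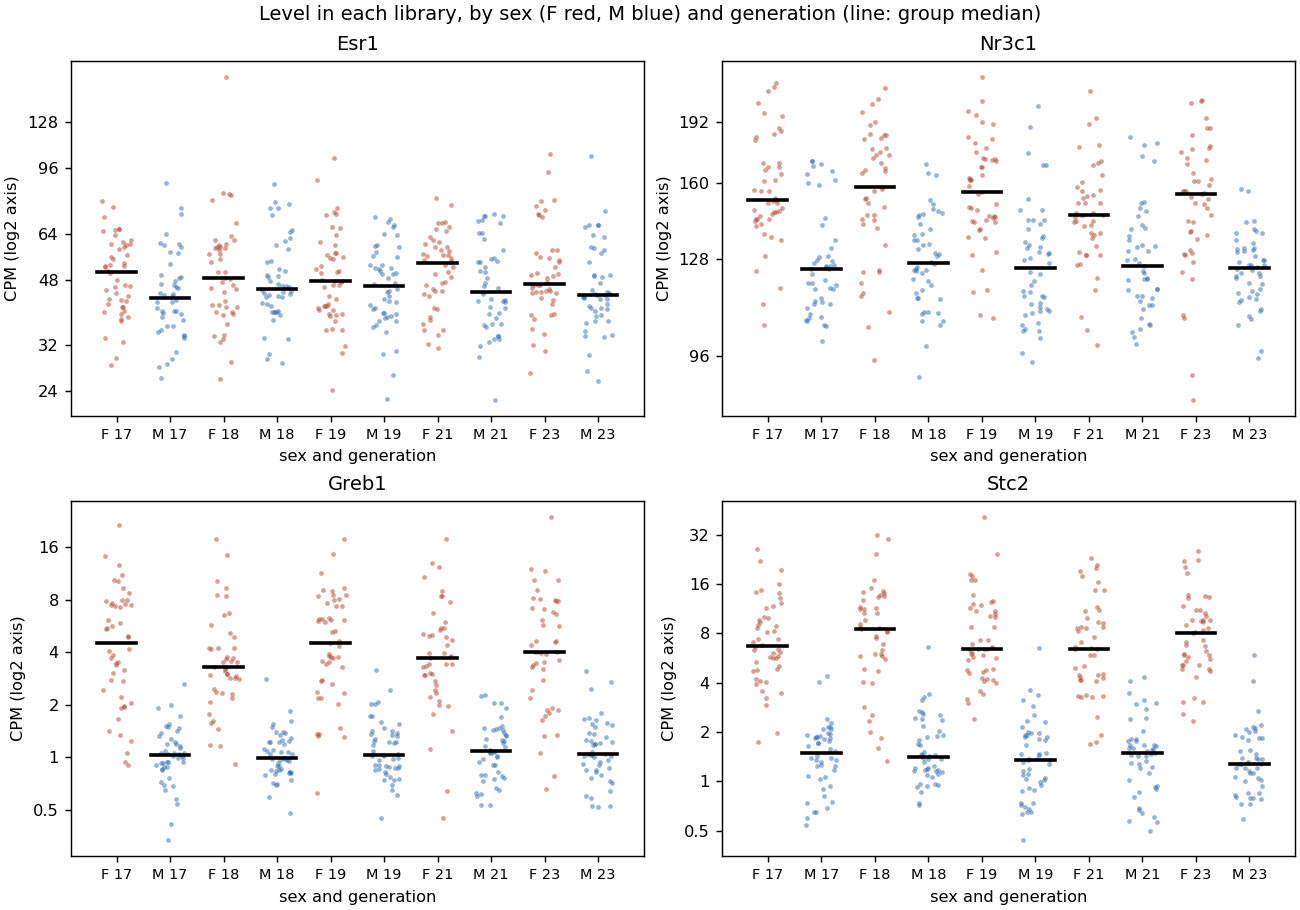
CPM of Esr1, Nr3c1, Greb1 and Stc2 on a log2 axis in each library, by sex (F, M) and generation; the black line is the group median. Female medians stand above male medians in every generation for all 4 genes; for Greb1 the 5 female medians lie between 3.29 and 4.54 CPM and the 5 male medians between 0.990 and 1.09 CPM.

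These 4 differences are set in a tissue in which 55.0% of the 18823 genes tested differed between the sexes by edgeR's quasi-likelihood test at an adjusted p below 0.05. Males were higher in 24.4% and lower in 30.6%. Of the calls 44.3% were higher in males, and 30.8% where libraries were scaled by their total count alone, which moved the median of all genes from -0.01 to -0.05 on the log2 scale. A lower male minus female value than that of Stc2 was found for 9 genes and than that of Greb1 for 19, against 1924 for Nr3c1 and 4410 for Esr1. Because the genes were chosen with this contrast in view, their place in it is not a finding.

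How much a gene varied among animals of the same sex and generation was not part of the choice. The SD of log2 CPM was 1.02 in females and 0.52 in males for Greb1, and 0.90 and 0.69 for Stc2. In females, 88.2% of all genes varied less than Greb1 and 81.4% less than Stc2. The coefficient of variation of Greb1 was 73.5% in females and 40.1% in males, and that of Stc2 was 67.0% and 57.1%. Nr3c1 varied less than the median gene, with an SD of 0.25 and 0.21 where the median gene had 0.38 and 0.37, and Esr1 lay near the median gene at 0.40 and 0.38. These spreads were not tested against each other, and for low counts a part of the spread is counting error.

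None of the 4 genes passed the test for a difference between the 5 generations (edgeR quasi-likelihood test). The fitted levels ranged over 0.22 on the log2 scale for Greb1 (adjusted p = 0.634), 0.18 for Stc2 (adjusted p = 0.826), 0.10 for Esr1 (adjusted p = 0.772) and 0.05 for Nr3c1 (adjusted p = 0.706). Over all genes 7.56% passed. Within a sex, the medians of neighbouring groups lay closer than the SD within any of the groups for all 4 genes. The size of the sex difference did not pass a test for change with generation in any of the 4 genes (adjusted p = 1.0 for each), where 0.531% of genes passed. Library numbers form 5 runs of up to 96, which may stand for plates, although no source used here says so. Esr1 and Nr3c1 differed between these runs, over 0.22 (adjusted p = 0.00189) and 0.17 (adjusted p = 2.04e-06) on the log2 scale, as did 47.4% of all genes, while Greb1 (0.27, adjusted p = 0.280) and Stc2 (0.26, adjusted p = 0.134) did not pass.

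Correlation among animals showed which of the 4 genes varied together once the mean of each sex and generation was removed. The question was put to 6 pairs in each sex on the deposited VST (permutation tests, 2-sided, 100000 resamples within generations, adjusted over 12 tests). The receptors varied together in both sexes. Esr1 and Nr3c1 had Pearson r = 0.32 in females (adjusted p = 4e-05; Spearman rho 0.26, adjusted p = 0.0004) and r = 0.36 in males (adjusted p = 4e-05; rho 0.36, adjusted p = 6e-05). The raw p of both r values was 1e-05, the smallest that the permutations can give. All 5 generations had a positive r in each sex, from 0.14 to 0.52 in females and from 0.31 to 0.52 in males, and leaving out the 2 animals farthest from the median of Esr1 gave 0.29 and 0.35. Within the 5 runs of library numbers r was 0.40, 0.54, -0.12, 0.18 and 0.43 in females and 0.51, 0.22, 0.41, 0.27 and 0.34 in males, so r among females was negative in the third run. Both genes also went with an index of transcript length, the contrast of long against short transcripts in a library, at r = 0.32 for either gene in females and at 0.54 for Nr3c1 and 0.31 for Esr1 in males. With that index removed the pair had r = 0.24 in each sex (adjusted p = 0.001 in each).

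Greb1 and Stc2 varied together in females and not detectably in males. In females r was 0.30 (adjusted p = 4e-05, rho 0.29 with adjusted p = 6e-05), positive in 5 of 5 generations from 0.16 to 0.47, and 0.29 without the 2 animals farthest from the median of Greb1. In males r was -0.05 (adjusted p = 0.449, rho -0.02 with adjusted p = 0.721), from -0.21 to 0.12 over the generations. The male minus female difference in r was -0.35, and it passed a permutation test of the sex labels within generations (adjusted p = 0.00102 over 6 pairs; -0.32 with adjusted p = 0.00318 on log2 CPM). Within the runs of library numbers r was 0.53, 0.22, 0.20, 0.32 and 0.38 in females and -0.23, 0.03, -0.12, -0.14 and 0.18 in males. Without the libraries against their label r was 0.29 in females and -0.05 in males. Levels in males were low, with a median count of 85 for Greb1 and 110 for Stc2, so counting error was a larger part of the male than of the female spread, and its part in the difference was not tested.

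**Figure D2:**
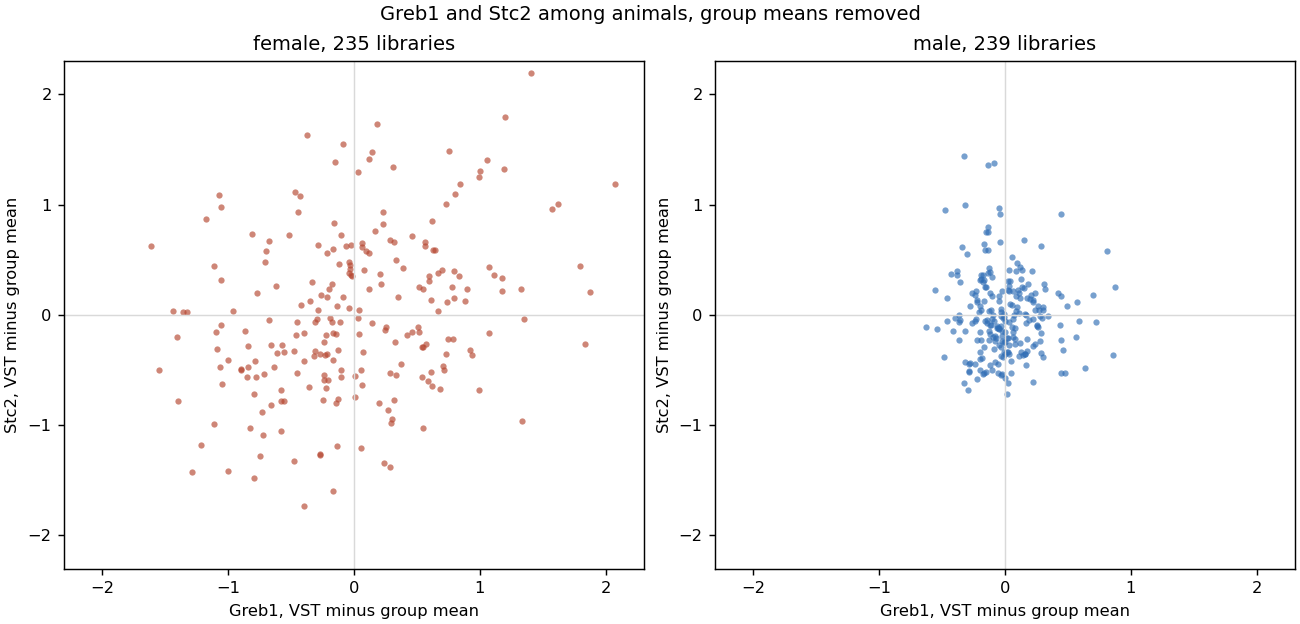
Greb1 (horizontal) and Stc2 (vertical) as deposited VST minus the mean of the animal's group, 1 point per library, females on the left and males on the right, on the same axes. The female cloud leans upwards (r = 0.30), the male cloud is smaller and has no lean (r = -0.05).

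Of the remaining pairs, Nr3c1 went with Greb1 and with Stc2 in females, weakly. For Nr3c1 and Greb1 r was 0.17 (adjusted p = 0.0189, rho 0.20 with adjusted p = 0.00531; 0.21 without the 2 farthest animals), positive in 5 of 5 generations, and 0.0018 to 0.19 in library blocks 2 to 5, where it did not pass. For Nr3c1 and Stc2 r was also 0.17 (adjusted p = 0.0189, rho 0.20 with adjusted p = 0.00624; 0.16 without the 2 farthest), positive in 4 of 5 generations. Within library blocks the latter pair passed in none of the 5 and was negative in block 3 (-0.19, against 0.16 to 0.30 in the others). The second relation fell to 0.10 (adjusted p = 0.217) with the marker-list means removed and to 0.15 (adjusted p = 0.068) with the transcript length index removed. In males these pairs had r = 0.10 (adjusted p = 0.208) and 0.09 (adjusted p = 0.282). Esr1 did not pass with Greb1 in females (r = 0.07, adjusted p = 0.307) or males (0.01, adjusted p = 0.905), nor with Stc2 in females (0.08, adjusted p = 0.307) or males (0.13, adjusted p = 0.0803). Estrogen receptor RNA and the estrogen-induced gene Greb1 were thus not seen to vary together among animals of one sex. For these 5 pairs other than Greb1 and Stc2, the difference in r between the sexes had adjusted p from 0.617 to 0.651.

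**Figure D3:**
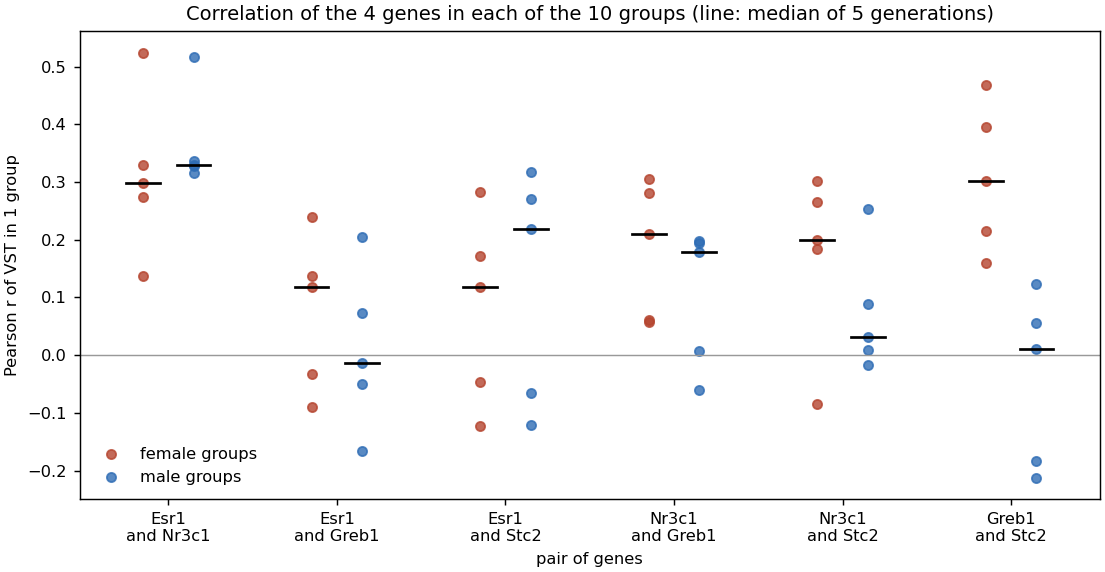
Pearson r of deposited VST for each of the 6 pairs of genes in each of the 10 groups, 45 to 50 libraries per point, female groups left and male groups right of each position; the line is the median of the 5 generations. Esr1 and Nr3c1 have 10 points above 0; for Greb1 and Stc2 the female points lie from 0.16 to 0.47 and the male points from -0.21 to 0.12.

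The whole table was then asked how many genes go with each of the 4 among animals of a sex (limma slope with generation as a term, adjusted p under 0.05). Nr3c1 had the largest shares: 35.4% of genes in females and 41.8% in males went with it (26.8% and 38.1% with marker-list means added). For Esr1 the shares were 24.3% and 19.1% (17.6% and 14.1% with library block added). Both receptor genes correlated with the transcript length index and the mitochondrial share of counts, and no slope fit removed these measures. Stc2 had 9.07% in females and 2.03% in males, and Greb1 5.20% in females and 0.0106% in males. The male share of Greb1 is 2 genes, both negative, Srpr (r = -0.35, adjusted p = 0.000709) and Enox2 (r = -0.32, adjusted p = 0.00592), where 1240 genes had an unadjusted p under 0.05.

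The genes most like Esr1 were neighbours on its chromosome. Over all libraries, with group means removed, Ppil4, a cyclophilin-like RNA-binding protein, had r = 0.60 (0.59 in females, 0.62 in males), and Epm2a, the glycogen phosphatase laforin, had r = 0.56 (0.55 and 0.56). Pcmt1, a protein repair methyltransferase, followed at 0.42 and Syne1, the nuclear envelope protein nesprin 1, at 0.40. These 4 genes start 3.18, 6.73, 3.02 and 0.409 Mb from the start of Esr1 on chromosome 10. Rdx, the cytoskeletal linker radixin at 0.43, was the only one of the 5 most alike on another chromosome (9). As a description, the median absolute r of Esr1 was 0.145 with the 32 genes that start within 4 Mb and 0.0762 with genes on other chromosomes. The corresponding medians were 0.0753 (24 genes) and 0.0444 for Greb1, 0.0762 (53 genes) and 0.0519 for Stc2, and 0.0784 (117 genes) and 0.106 for Nr3c1. No gene's slope on Esr1 passed a test of the difference between the sexes (0.00% of genes by limma, 1459 with an unadjusted p under 0.05).

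For Nr3c1 the most alike genes lay on other chromosomes. They were Larp4 (r = 0.57), an RNA-binding protein, Cul3 (0.55), a ubiquitin ligase scaffold, Tgfbr1 (0.55), the type I receptor of TGF-beta, Kpna1 (0.55), a nuclear import adaptor, and Nrip1 (0.55), a corepressor of nuclear receptors. Their r ran from 0.48 to 0.56 in females and from 0.55 to 0.66 in males.

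The 5 genes most like Greb1 had higher r in females than in males. Twnk, the mitochondrial DNA helicase, had r = 0.66 in females and 0.04 in males. Tiparp, a mono-ADP-ribosyltransferase that estrogens and aryl hydrocarbons are known to induce, had 0.53 and -0.15. Aff3, a subunit of a transcription elongation complex, had 0.50 and -0.04, Rasl11b, a small GTPase, 0.49 and -0.00, and Tut4, a terminal uridylyltransferase, 0.50 and -0.00. These 5 were ranked by r over all libraries, in which females, where Greb1 varied more, weigh more, so the choice itself favours genes that go with Greb1 in females, and the contrast of their r between the sexes is a description with no test. Over all genes the slope on Greb1 differed between the sexes in 0.345% (limma on values scaled to unit variance within groups, a test added after the values were seen). All 5 also lay lower in males, by -0.30 for Tut4 to -1.14 for Aff3 on the log2 scale (adjusted p from 3.66e-84 to 1.21e-32, edgeR). Among all genes, 30.6% were lower in males. Tiparp and Rasl11b stood among the 5 most alike for Stc2 as well.

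Stc2 had a Pearson r of 0.51 with Tiparp in females and 0.28 in males. Fam117b followed with 0.52 and 0.22, Car14, a membrane carbonic anhydrase, with 0.42 and 0.32, Rasl11b with 0.37 and 0.32, and Doc2b, a calcium sensor of vesicle fusion, with 0.48 and 0.12. These 5 were ranked in the same way. Rasl11b (-1.04 on the log2 scale), Tiparp (-0.76), Car14 (-0.43) and Fam117b (-0.09, adjusted p = 0.0270, edgeR) were lower in males. Doc2b did not pass (-0.18, adjusted p = 0.110). Over all genes the slope on Stc2 differed between the sexes for 3.24%.

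Glucocorticoid-responsive genes were the list with the largest share that went with Stc2 in females. In females 19 of 24 went with Stc2, all of them positively, with a median r of 0.34 over the 24 genes where the median over all genes was -0.00 and 9.07% of genes passed. The highest were Foxo1 (r = 0.50, adjusted p = 3.44e-12), a transcription factor of the muscle breakdown programme, Fkbp5 (0.47, adjusted p = 1.17e-10), a glucocorticoid-induced co-chaperone, Glul (0.46), the glutamine synthetase, Ddit4 (0.46), an inhibitor of mTOR signalling, and the metallothioneins Mt2 (0.44) and Mt1 (0.44). Klf15 (0.39), Foxo3 (0.37), Trim63 (0.36), Per1 (0.35), Klf9 (0.34) and Tsc22d3 (0.30) also passed. Fbxo32 (0.15), Sgk1 (0.13), Pdk4 (0.09), Dusp1 (0.07) and Angptl4 (-0.10) did not pass. In every female generation 21 to 23 of the 24 genes had a positive r, with medians from 0.21 to 0.47, and in every run of library numbers 21 to 23, with medians from 0.24 to 0.41. With library block or marker-list means added, or without the libraries against their label, the count was 19, and on log2 CPM it was 18.

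In males, 2 of the 24 went with Stc2, Cdkn1a (r = 0.24, adjusted p = 0.0194) positively and Pdk4 (-0.24, adjusted p = 0.0195) negatively, with a median r of 0.08 and a background of 2.03%. With marker-list means added 4 passed, 1 positively. In the male generations 7 to 18 of the 24 genes had a positive r. Foxo1 had r = -0.08 and Fkbp5 -0.08 in males. The slope on Stc2 differed between the sexes for 12 of the 24 genes, beside 3.24% of all genes, Foxo1 (adjusted p = 4.28e-06), Fkbp5 (adjusted p = 8.47e-06), Zbtb16 (adjusted p = 0.000162) and Glul (adjusted p = 0.000346) first among them, again by the limma test that was added after the counts were seen.

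The receptor itself showed a different picture from Stc2. Nr3c1 went with 4 of the 24 genes in females, Tsc22d3 positively (r = 0.23) and Angptl4 (-0.29), Cebpd (-0.20) and Pdk4 (-0.16) negatively, with a median r of 0.00. In males it went with 11, all positively, with a median r of 0.14, led by Foxo1 (0.41, adjusted p = 1.26e-09), Klf9 (0.39), Mt2 (0.35), Foxo3 (0.34) and Glul (0.34). The single generations were mixed, and their difference was not tested: the median r in males ran from 0.30 in generation 17, with 22 of 24 genes positive, to -0.02 in generation 23, with 12 positive, and in females from -0.15 in generation 19, with 4 positive, to 0.17 in generation 21, with 19 positive. With marker-list means added the female count was 1, with no positive gene, and the male count 9. Beside the 35.4% and 41.8% of all genes that went with Nr3c1, the female count lay below the background and the male count near it. The slope on Nr3c1 differed between the sexes for 5 of the 24, Glul (adjusted p = 0.0052), Foxo3 (adjusted p = 0.0169), Foxo1 (adjusted p = 0.0203), Zbtb16 (adjusted p = 0.0268) and Angptl4 (adjusted p = 0.0462), and for 8.13% of all genes. Esr1 went with 0 of the 24 in each sex by limma (3 in females and 1 in males at an unadjusted p under 0.05), where 24.3% and 19.1% of all genes went with it. The female count was 1 on log2 CPM, with marker-list means added and without the libraries against their label. Greb1 went with 2 in females, Fbxo32 (0.28) and Pdk4 (0.21), where 5.20% of all genes did (1 of the 24 on log2 CPM, and 3 with library block or marker-list means added), and with 0 in males (0 also at an unadjusted p under 0.05).

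**Figure D4:**
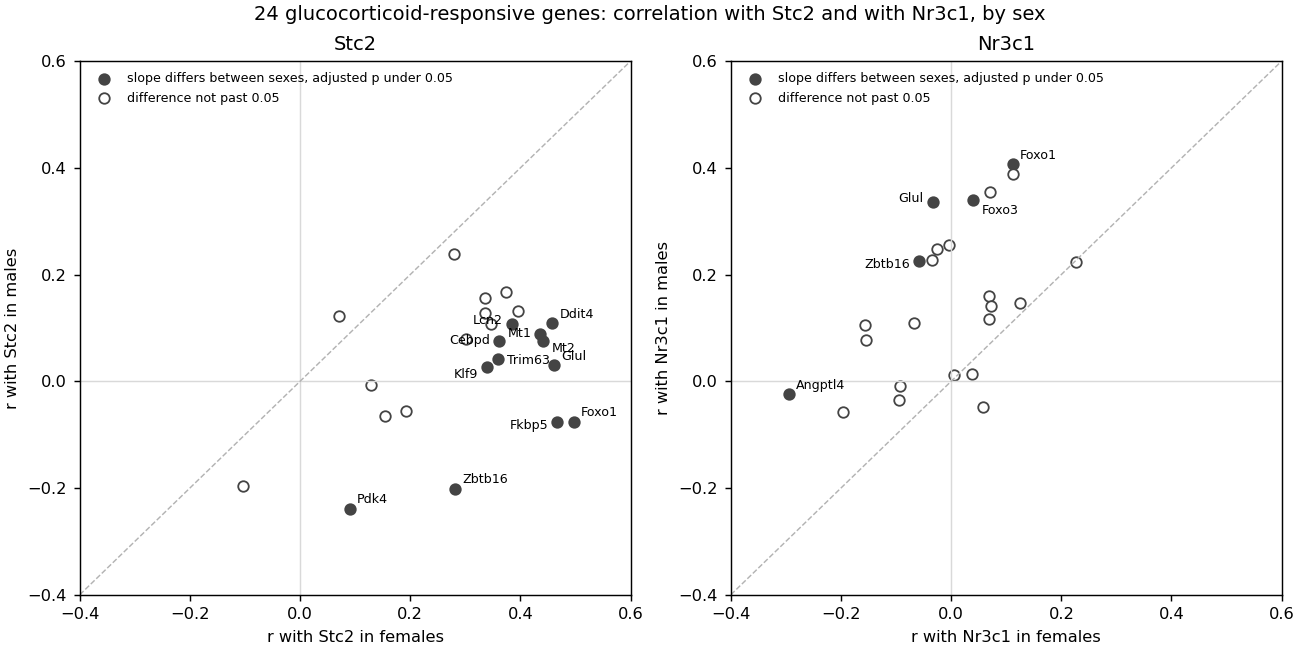
Correlation of 24 glucocorticoid-responsive genes with Stc2 (left) and with Nr3c1 (right), r in females on the horizontal and r in males on the vertical axis, 1 point per gene; filled points have a slope that differs between the sexes at an adjusted p under 0.05, and the dashed line marks equal r. For Stc2 the points lie to the right, 23 of 24 above 0 in females, while for Nr3c1 Foxo1, Foxo3, Glul and Zbtb16 lie above the line.

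Estrogen-responsive genes went with Esr1 about as often as genes in general. Of 16 tested, 5 went with Esr1 in females, Nrip1 positively (r = 0.27) and Rara (-0.30), Hspb8 (-0.25), Siah2 (-0.19) and Susd3 (-0.17) negatively, and 3 in males, Ctsd (-0.21), Ccn5 (-0.20) and Hspb8 (-0.19). All genes stood at 24.3% and 19.1%, with 2346 of 4575 calls negative in females and 1732 of 3604 in males, and the female count was 3 with library block added. Greb1 went with 3 in females, Xbp1 (r = 0.38, adjusted p = 7.92e-07), a transcription factor of the unfolded protein response, Car12 (0.26, adjusted p = 0.00438), a carbonic anhydrase, and Ccn5 (0.23, adjusted p = 0.0159), a matricellular protein, which is 3 of 16 beside a background of 5.20%, and with 0 in males (0 also at an unadjusted p under 0.05, limma). For coactivators and corepressors Nr3c1 had 10 of 15 genes in females, 8 positive (6, with 5 positive, when marker-list means were added), and 11 in males, 9 positive, with Nrip1 at 0.56 and 0.55 and the ubiquitin ligase Ube3a at 0.46 and 0.56. The background for these counts is 35.4% and 41.8% of all genes. Ube3a went with Esr1 as well, at 0.42 in females and 0.31 in males. Receptor chaperones went with Nr3c1 in 2 of 12 cases in females (0 with marker-list means added and 1 with library block) and 8 in males, with Ptges3, the HSP90 co-chaperone p23, highest at 0.19 and 0.43. On the stanniocalcin and PAPP-A axis, Stc2 went with its paralogue Stc1 (0.30, adjusted p = 0.000198), with Igfbp3 (0.30, adjusted p = 0.000286) and with Pappa (0.25, adjusted p = 0.00353) in females, 3 of 13 genes. In males it went with Igfbp3 (0.24, adjusted p = 0.0185) and, negatively, with Igf1 (-0.26, adjusted p = 0.00985). Of the estrogen-responsive genes 5 of 16 went with Stc2 in females, 1 positively and 4 negatively (3 with marker-list means added). In males 0 of the 16 did (2 at an unadjusted p under 0.05, limma). Of the receptor chaperones 3 of 12 went with Stc2 in females, all positively, and 1 in males, negatively. Over all genes 9.07% went with Stc2 in females and 2.03% in males.

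Nr3c2, the mineralocorticoid receptor, had r = -0.13 with Stc2 in females and 0.26 in males. Its slope on Stc2 differed between the sexes (adjusted p = 0.0037, limma).

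Among the other steroid receptors, the progesterone receptor Pgr, an estrogen-induced gene, was lower in males (-1.57 ± 0.18 on the log2 scale, adjusted p = 1.44e-15, edgeR) but barely present, at 0.0986 ± 0.145 CPM in females and 0.0319 ± 0.0483 CPM in males. Nr3c2 was 16.3 ± 2.73 and 15.7 ± 2.54 CPM in females and males (-0.05 ± 0.02, adjusted p = 0.0375, and 0.897 with marker-list means as covariates). Estrogen receptor beta, Esr2, stood at 0.148 and 0.155 CPM (adjusted p = 0.774) and the membrane receptor Gper1 at 0.933 and 0.978 CPM (adjusted p = 0.0749), and neither passed. Of the estrogen-related orphan receptors, which bind no estrogen, Esrrg (0.19) and Esrra (0.15) were higher and Esrrb (-0.08) lower in males, the last not with marker-list means as covariates (adjusted p = 0.190).

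Glucocorticoid-responsive genes were mostly lower in males: 15 of 24 fell, 2 rose and 7 did not pass, with a median log2 difference of -0.20 where 30.6% of all genes were lower. Mt2 (15.6 against 10.1 CPM in females and males, -0.66 ± 0.11, adjusted p = 7.35e-08), the iron-binding lipocalin Lcn2 (-0.66 ± 0.09, adjusted p = 1.48e-11) and the cell cycle inhibitor Cdkn1a (51.5 against 34.6 CPM, -0.58 ± 0.05, adjusted p = 4.69e-22) had the lowest values, and Sgk1 (0.28 ± 0.03) and Mertk (0.08 ± 0.03, adjusted p = 0.0438, edgeR) were the 2 that were higher. Mertk no longer passed with total counts alone (0.04), and its adjusted p was up to 0.298 over the alternatives. With marker-list means as covariates Mt2 was at -0.35 (adjusted p = 0.0326), above Lcn2 (-0.65), Cdkn1a (-0.55), Klf15 (-0.47) and Foxo3 (-0.44). Between generations, 11 of the 24 differed, where 7.56% of all genes did. Estrogen-responsive genes went both ways, 8 of 16 higher and 5 lower in males (6 and 5 with total counts alone), where 24.4% of all genes were higher and 30.6% lower, so the lower count is near the background. Xbp1 (69.4 against 48.7 CPM, -0.51 ± 0.02, adjusted p = 1.01e-90) was, after Pgr (-1.57), Myb (-0.85) and Car12 (-0.80), the next lowest. Of 7 androgen-responsive genes 5 were higher in males, beside the same 24.4%, with the polyamine enzymes Amd1 (189.3 against 1083 CPM, 2.52 ± 0.04) and Smox (39.2 against 141 CPM, 1.85 ± 0.06) highest, and Tmprss2 was lower (-1.57 ± 0.20) at 0.117 against 0.0376 CPM. With marker-list means as covariates Tmprss2 was at -0.84, Pgr at -1.07 and Myb at -0.45.

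The counts that follow stand beside 24.4% of all genes higher and 30.6% lower in males, and some, such as that of the chaperones, lie near those shares. Coactivators and corepressors were higher in males in 9 of 15 cases and lower in 2 (8 and 3 with total counts alone), by little. Carm1 (0.23 ± 0.02) and Ncoa1 (0.19 ± 0.02) rose and Gata3 (-0.71 ± 0.13) fell from a low level. Among receptor chaperones 2 of 12 were higher and 4 lower, with Hsp90aa1 at 0.30 ± 0.05, Fkbp5 at -0.18 ± 0.06 and Ppid at -0.17 ± 0.02. Steroid-metabolising enzymes were lower in males in 7 of 12 cases, most of all Akr1c18 (-1.32 ± 0.15) and Hsd11b2 (-0.70 ± 0.11), which inactivates glucocorticoids and stood at 0.125 against 0.0763 CPM. Of the 3 that were higher, H6pd (0.50 ± 0.03) makes the cofactor for Hsd11b1 (0.39 ± 0.03), the enzyme that regenerates active glucocorticoid. On the Stc2 axis 7 of 13 genes were lower in males and 3 higher: the protease gene Pappa fell with Stc2, from 1.88 to 1.34 CPM (-0.49 ± 0.04, adjusted p = 8.77e-26), while Igf1 (0.48 ± 0.05) and Igfbp5 (0.42 ± 0.05) were higher in males. Fkbp5, Igf1, Igfbp4, Nrip1 and Pgr stand on more than a single list.

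**Figure D5:**
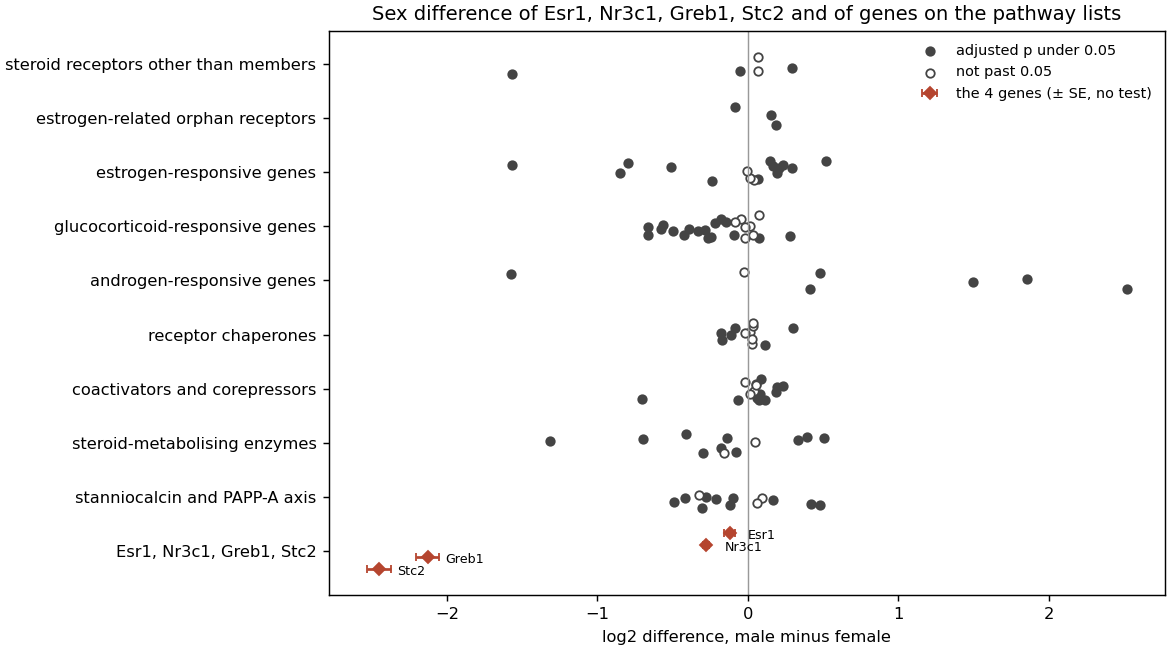
Male minus female log2 difference (edgeR) of each gene on 9 pathway lists, filled where the adjusted p is under 0.05, and below them Esr1, Nr3c1, Greb1 and Stc2 with the SE and no test. Stc2 (-2.45) and Greb1 (-2.13) lie farther to the left than any gene of the lists, of which Tmprss2 and Pgr (-1.57 each, and -0.84 and -1.07 with marker-list means as covariates) come nearest.

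Some lists of other cells and tissue states moved with sex and, less, with these genes. The counts below stand beside 24.4% of all genes higher and 30.6% lower in males. Adipocyte markers summed to between 440.2 and 2181 CPM in females and between 374.3 and 1463 CPM in males (medians 837.3 and 665.1). Of these 9 markers 8 were lower in males and 1 higher. All 8 slow-fibre markers were lower in males, at sums between 619.2 and 9946 CPM in females against 884.5 and 8212 CPM in males (medians 3680 and 2532). Of 8 endothelial markers 6 were higher in males (4 with total counts alone), at 240.8 to 537.6 CPM in females against 256.9 to 456.7 CPM. Of 5 satellite-cell markers 3 were higher in males, at sums of 12.6 to 54.5 against 9.50 to 49.0 CPM in females. Fibro-adipogenic progenitor markers were lower in males in 6 of 9 cases and higher in 2. Erythroid markers were higher in 3 of 5 (1 with total counts alone) and Schwann markers lower in 2 of 6 (5 with total counts alone). Of 8 macrophage markers 0 passed (2 lower with total counts alone). Fast-fibre markers were higher in 6 of 11 cases and lower in 3. Immediate-early genes were higher in 5 of 12, and clock genes higher in 4 of 14 and lower in 2. No defining marker of these lists had a median count of 0. With the marker-list means as covariates the sex differences were -2.38 for Stc2, -2.22 for Greb1, -0.25 for Nr3c1 and -0.08 for Esr1. As a description over the females and then the males, endothelial markers had r = -0.36 and -0.39 with Nr3c1 and -0.27 and -0.05 with Stc2, macrophage markers -0.24 and -0.00 and clock genes 0.31 and 0.11 with Nr3c1, satellite-cell markers -0.28 and -0.10 with Stc2, and adipocyte markers at most 0.21 in absolute value with any of the 4. The mitochondrial share of counts had r = 0.32 and 0.34 with Nr3c1 and 0.29 and 0.19 with Esr1. The log2 total count had an absolute r of at most 0.10 with every one of the 4 genes. The part of these cells and measures in the correlations was not tested beyond the alternatives given.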

How the data were processed

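RNA-seq of skeletal muscle, named gastrocnemius in the methods, was analysed for 474 mice, 1 library per animal. Per the methods, polyadenylated RNA was selected, and read mates were joined and aligned as single reads to a transcriptome of the founder strains. The authors deposited estimated counts per gene (expected counts from EMASE, run by GBRS), and a variance-stabilised score (VST, from DESeq2) made by the authors from these counts. Coordinates are GRCm38. The methods mention removal of batch effects, and the deposited counts and the VST may differ in this. Wave, a covariate of the study, is not in the labels and was not fitted. Kinship, a random effect in the study's mapping of expression, was not fitted either.

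Here the expected counts were rounded, genes were filtered with filterByExpr (minimum count 10), and sex, generation, their interaction and library block were tested with edgeR's quasi-likelihood test (edgeR 4.0.16, R 4.3.3; TMM, prior count 2 for log2 CPM; Benjamini-Hochberg over all genes tested, threshold 0.05). Slopes were tested with limma 3.58.1 on the VST, and correlations by permutation in Python 3.11.15 with numpy 2.4.6, after subtraction of group means. Total counts ran from 35902446 to 165723762 per library. Counting error weighs most on rare transcripts such as Pgr, and its share was not measured for any gene. Each library is a different animal, and p-values measure the spread between animals, which were treated as independent.

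The 4 genes, the pathway lists and the marker lists were chosen with earlier results of these data known. Genes named by rule were the 4 genes, the other steroid receptors (1 of which is not reported here), the 3 genes of each pathway list with the largest sex difference among those called, and the 5 genes most like each of the 4. Other genes were named after their values were seen. Alternatives were other scalings, filters, tools, library blocks and marker covariates, and the removal of 5 libraries.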

Additional observations from a re-analysis of the deposited data

Results flagged for a closer look

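The correlation of Greb1 with Stc2 differed between the sexes, with r lower in males by -0.35 (male minus female, adjusted p = 0.00102, permutation of the sex labels within generations). Of the 5 genes most like Greb1 over all libraries, 5 had a slope on Greb1 that differed between the sexes (limma), and of the 5 most like Stc2, 1 did, namely Doc2b; these genes were chosen by an r in which the more variable females weigh more, so the counts are in part set by the choice and are no test. Of 24 glucocorticoid-responsive genes, the slope on Stc2 differed between the sexes for 12, beside 3.24% of all genes, and the slope on Nr3c1 for 5, beside 8.13%. Male levels of Greb1 and Stc2 were low, with median counts of 85 and 110, and the part of counting error in these differences was not tested.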

How the results depend on the processing

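Over the alternatives, most values kept their direction and their side of the threshold. Of the values of correlations that had passed, 21 kept their direction and no longer passed, and 2 reversed. Correlations that had not passed also changed sign in places and are not among these 2. An example is Esr1 and Stc2 in females, from 0.08 to -0.28 in block 4. In addition 9 counts moved by over 1.5 times, these 9 being counts of the interaction and of glucocorticoid-responsive genes. The number of genes called for the interaction, 100, was 45 with a mean count of at least 100, 38 with marker-list means as covariates, and 0 by limma on the deposited VST (870 at an unadjusted p under 0.05); the cause was not tested. Counts of glucocorticoid-responsive genes also moved: with marker-list means, from 4 to 1 for Nr3c1 in females, from 2 to 4 for Stc2 in males and from 0 to 1 for Esr1 in females (1 also on log2 CPM and without the libraries against their label), and on log2 CPM from 2 to 1 for Greb1 in females. Beyond these 9, in females, marker-list means moved coactivators and corepressors that went with Nr3c1 from 10 to 6 and chaperones from 2 to 0 (1 with library block), and library block moved estrogen-responsive genes that went with Esr1 from 5 to 3. The correlation of Nr3c1 and Stc2 in females no longer passed with marker-list means removed (0.096) or the transcript length index removed (0.15), the latter added after seeing the data. Within the 5 library blocks, which hold fewer animals, values that no longer passed or reversed were, for Esr1 and Nr3c1 in females, 0.40, 0.18 and 0.43 in blocks 1, 4 and 5 and -0.12 in block 3. In males the same pair had 0.22, 0.41, 0.27 and 0.34 in blocks 2 to 5. Nr3c1 and Stc2 in females had 0.30, 0.22, 0.27 and 0.16 in blocks 1, 2, 4 and 5 and -0.19 in block 3. Nr3c1 and Greb1 in females had 0.17, 0.0018, 0.094 and 0.19, and Greb1 and Stc2 in females 0.22, 0.20, 0.32 and 0.38, in blocks 2 to 5. No paired analysis was possible because each library comes from a different animal and the animal numbers are not shared between groups. Groups of 45 or more libraries were not reduced by single libraries. Depth limits Pgr, Esr2, Tmprss2, Akr1c18, Hsd11b2, Hsd17b1, Igfbp2 and Susd3, at under 0.2 CPM in each sex.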
